A study of Mus musculus with 12 samples.

Results

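The vacuolar H+-ATPase (V-ATPase) is a rotary proton pump that acidifies lysosomes, endosomes and the Golgi. Its V0 sector lies in the membrane and carries the protons, and its soluble V1 sector sits on the cytosolic face and hydrolyses ATP. Sectors assemble and come apart reversibly, so 1 working pump needs proteins that are made at different places in the cell: membrane proteins of the secretory route are usually synthesised on ribosomes docked at the endoplasmic reticulum (ER), soluble cytosolic proteins usually on free ribosomes. Described here are the mRNAs of 10 subunits, chosen by name, of 55416 gene identifiers in the count files: 5 of V0 (Atp6v0a1, Atp6v0a2, Atp6v0b, Atp6v0c and Atp6v0d1) and 5 of V1 (Atp6v1a, Atp6v1b2, Atp6v1d, Atp6v1e1 and Atp6v1h). Each was found as 1 identifier in all 12 libraries, and 10 of 10 passed the filter on low counts that left 16221 genes for testing.

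The cells were E14Tg2a.4 embryonic stem cells of the mouse, and polyadenylated RNA was sequenced. In this line the large-subunit ribosomal protein Rpl31 carries a FLAG, TEV and AviTag fusion (Rpl31-FTA). The cells expressed ALIBi, a proximity biotinylation system, directed either to the ER or to the cytosol, so that ribosomes near it became biotinylated and could be pulled down and released with TEV protease. The study asked which mRNAs those 2 ribosome populations carry. There are 4 groups of 3 libraries each: ER ribosome-bound RNA, cytosol ribosome-bound RNA, ER whole-cell RNA and cytosol whole-cell RNA, where whole-cell RNA is the lysate before the pull-down. All 4 groups share the line, the Rpl31 tag and the transfection. No label gives an siRNA for these libraries, although the series' text speaks of one. Replicates are called biological but no separate cultures are named, and p-values then reflect only how these libraries vary. As in any bulk sample, fewer cells of a type and less RNA per cell cannot be told apart.

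Libraries held 21.1 to 26.9 M reads counted in genes. The labelled cell type was checked with markers: 8 of 8 stem cell genes, among them Pou5f1 and Nanog, were detected, with a summed level of 12779.7 to 13355.4 CPM (counts relative to the library size, scaled by edgeR's TMM factors) in ER ribosome-bound RNA, 10266.5 to 10469.7 in cytosol ribosome-bound RNA, 8241.7 to 8574.3 in ER whole-cell RNA and 8236.5 to 8413.3 in cytosol whole-cell RNA. Mesoderm markers summed to at most 2.2 CPM and endoderm markers to at most 16.1 CPM in any library. Fibroblast markers, mostly secreted or membrane proteins, summed to 75.8 to 80.5 CPM in ER ribosome-bound RNA against at most 23.8 CPM in cytosol ribosome-bound RNA, and to 23.1 to 24.5 CPM in ER whole-cell RNA against 24.2 to 24.8 CPM in cytosol whole-cell RNA; the whole-cell ranges overlap. Of these 6 markers, 2 were under 1 CPM on average in ER ribosome-bound RNA and 3 in each other group. Neural markers summed to 60.0 to 62.0 CPM in ER ribosome-bound RNA against 71.7 to 74.9 CPM in cytosol ribosome-bound RNA. The part of these differences in the results was not tested.

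What sets the subunits apart in their own sequence is shown first, because the results divide along it. Each coding sequence was taken from a GENCODE M21 transcript (genome build GRCm38) and its most hydrophobic window of 19 codons was found with the Kyte-Doolittle scale. The windows follow 5′ to 3′, as DNA of the coding strand, with codons that have T in the middle, which encode phenylalanine, leucine, isoleucine, methionine or valine, in capitals. The 4 V0 subunits with membrane segments come first.
Atp6v0a1: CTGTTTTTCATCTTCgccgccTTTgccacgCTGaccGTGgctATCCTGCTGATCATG
Atp6v0a2: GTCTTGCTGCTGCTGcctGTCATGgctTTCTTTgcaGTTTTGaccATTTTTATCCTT
Atp6v0b: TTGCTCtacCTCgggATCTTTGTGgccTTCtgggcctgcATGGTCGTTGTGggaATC
Atp6v0c: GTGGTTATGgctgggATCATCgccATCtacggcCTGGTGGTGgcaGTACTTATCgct
Atp6v0d1: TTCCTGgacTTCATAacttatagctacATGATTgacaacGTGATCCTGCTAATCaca
Atp6v1a: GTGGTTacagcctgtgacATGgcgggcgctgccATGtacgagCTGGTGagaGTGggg
Atp6v1b2: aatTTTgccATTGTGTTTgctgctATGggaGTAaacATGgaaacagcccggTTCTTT
Atp6v1e1: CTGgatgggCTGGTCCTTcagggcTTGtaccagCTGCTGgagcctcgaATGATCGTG

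Of 19 codons, 15 were capitals in Atp6v0a2 (chromosome 5), 13 in Atp6v0a1 (chromosome 11) and 12 each in Atp6v0b (chromosome 4) and Atp6v0c (chromosome 17). The window of Atp6v0d1 (chromosome 8) held 11, but with aspartate codons between them. The V1 windows held 7 in Atp6v1a (chromosome 16), 9 in Atp6v1b2 (chromosome 8) and 10 in Atp6v1e1 (chromosome 6), and those of Atp6v1d (chromosome 12) and Atp6v1h (chromosome 1), not printed, held 9 each. Counting a stretch as a hydrophobic segment where the window mean reached 1.6, the scan found 6 segments in Atp6v0a1 (838 residues), 5 in Atp6v0a2 (856 residues), 5 in Atp6v0b (205 residues) and 3 in Atp6v0c (155 residues). It found 0 in Atp6v0d1 (351 residues), whose highest window mean was 1.36, and 0 in the 5 V1 subunits, whose highest window means were 0.81 to 1.12. The printed windows begin at residue 776 in Atp6v0a1, 787 in Atp6v0a2, 6 in Atp6v0b and 59 in Atp6v0c. The same 4 members had segments at thresholds of 1.4 and 1.8.

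On ER ribosomes compared with cytosol ribosomes, 4 of 5 V0 mRNAs were higher, by 2.59 to 3.97-fold, and the fifth, Atp6v0d1, was not past the threshold. Of the V1 mRNAs, 0 of 5 were higher (3 of 5 with a scaling to cytosolic genes, below) and 2 were lower with either scaling, Atp6v1b2 and Atp6v1e1. Over all 16221 genes, 29.1% were higher and 24.6% lower in this comparison (edgeR's quasi-likelihood test, 2-sided, Benjamini-Hochberg adjusted p under 0.05), so a call in itself is common. The median log2 ratio was 1.38 for the V0 members and 0.00 for the V1 members, against 0.00 for all tested genes.

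**Figure D1:**
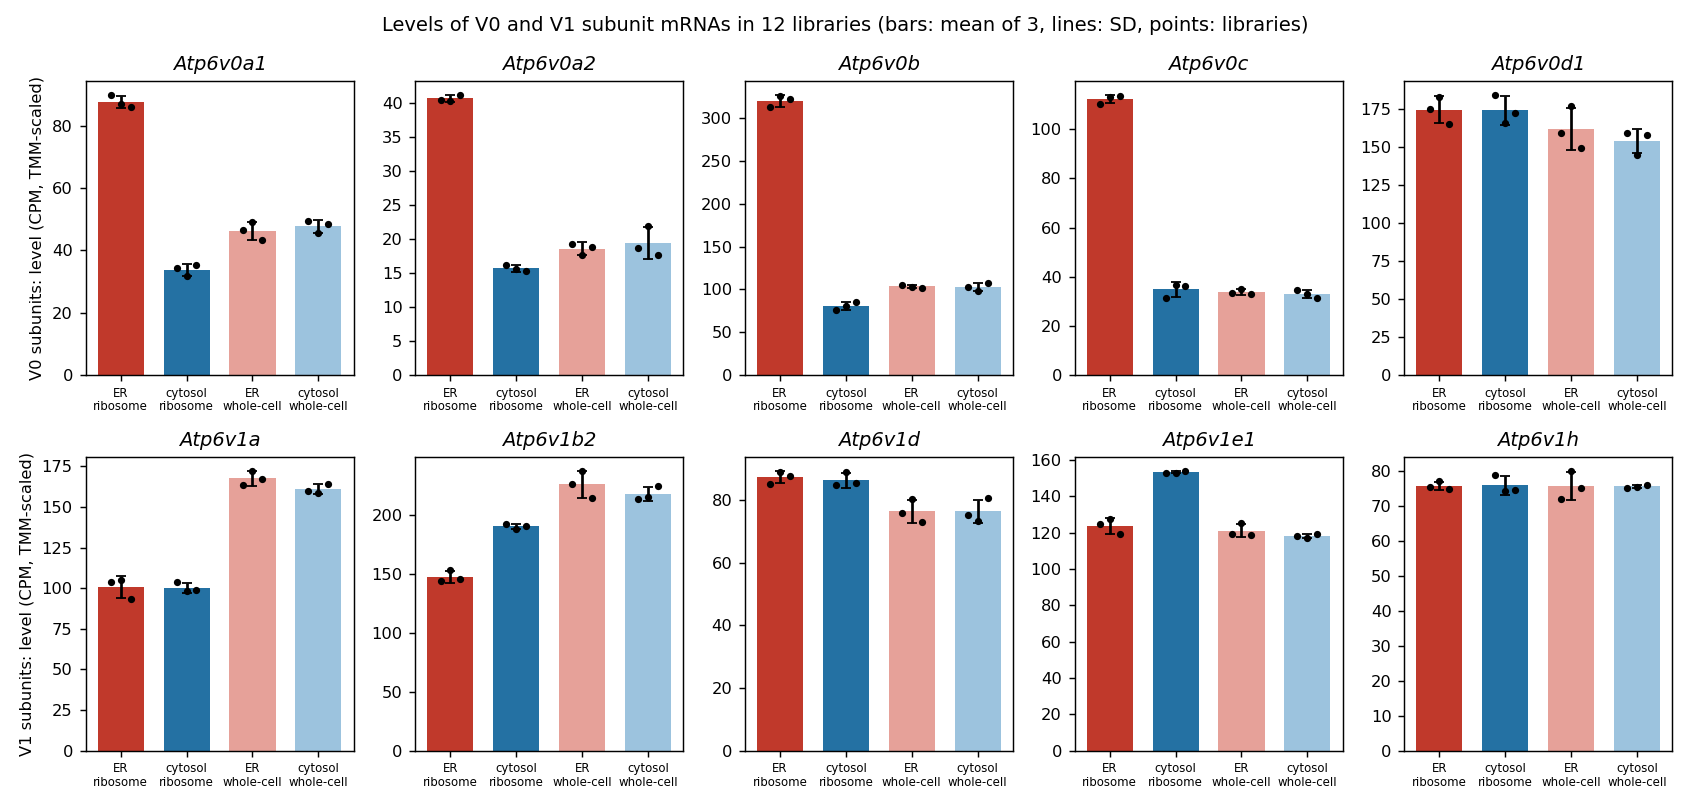
Level of each subunit mRNA (vertical axis, CPM scaled by TMM, starting at 0) in ER ribosome-bound, cytosol ribosome-bound, ER whole-cell and cytosol whole-cell RNA; bars are means of 3 libraries, lines the SD and points the libraries. For Atp6v0a1, Atp6v0a2, Atp6v0b and Atp6v0c the ER ribosome-bound bar stands far above the other 3, and for Atp6v0d1 it does not.

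The proton path of V0 is a ring of small proteolipids turning against subunit a. Atp6v0b encodes the c″ proteolipid of the ring. Its level was 312.6, 325.8 and 322.3 CPM in ER ribosome-bound RNA, against 76.3, 80.5 and 85.3 CPM in cytosol ribosome-bound RNA. All ER libraries lay above all cytosol libraries, and the log2 ratio was 1.99 (SE 0.04; adjusted p = 1.9e-31 by edgeR's quasi-likelihood test), higher than for 96.5% of tested genes. Whole-cell RNA held 104.9, 102.7 and 102.1 CPM under ER targeting and 102.3, 98.2 and 107.1 CPM under cytosol targeting. ER ribosome-bound RNA was thus 3.1-fold above its lysate, while cytosol ribosome-bound RNA was 1.27-fold below its own. On the opposite strand the annotation places Gm12841, which shares 11.8% of the exonic bases of Atp6v0b. The library kit was directional, but the strand setting of the counting is not given in the sources used here.

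Atp6v0c encodes the c proteolipid, the main building block of the ring. Its level was 110.5, 113.2 and 113.4 CPM in ER ribosome-bound RNA, against 31.3, 36.7 and 36.4 CPM in cytosol ribosome-bound RNA, and in the lysates 33.3, 35.1 and 33.1 CPM under ER targeting and 34.6, 32.9 and 31.3 CPM under cytosol targeting. Only the ER ribosome-bound libraries stood apart; the other 9 overlapped. The log2 ratio between both ribosome populations was 1.69 (SE 0.05, adjusted p = 2.6e-26 by edgeR's quasi-likelihood test), a 3.23-fold difference. Unlike the other V0 members with segments, Atp6v0c was not called lower on cytosol ribosomes than in its lysate (log2 ratio 0.08, 95% interval -0.03 to 0.19).

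Reads of Atp6v0c may be shared with a copy. Atp6v0c-ps2, named as a pseudogene of it, matches 464 of the 465 coding bases (99.8%), and was counted at 101.9, 107.2 and 103.5 CPM in ER ribosome-bound RNA against 30.2, 30.2 and 32.4 CPM in cytosol ribosome-bound RNA, almost the level of Atp6v0c itself. Its log2 ratio was 1.75 (SE 0.058). The level of Atp6v0c alone is therefore uncertain, and reads of gene and copy cannot be told apart by count. With the counts of Atp6v0c-ps2 and of the barely counted Atp6v0c-ps1 added to those of Atp6v0c, a setting chosen after seeing the data, the log2 ratio was 1.72 and no call of the gene changed.

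Subunit a anchors the stator in the membrane and decides, by isoform, in which organelle the pump works. Atp6v0a1, the a1 isoform, was at 89.8, 86.8 and 86.1 CPM in ER ribosome-bound RNA, against 34.2, 31.6 and 35.2 CPM in cytosol ribosome-bound RNA. Whole-cell libraries lay between these groups without overlap, at 46.4, 49.1 and 43.3 CPM under ER targeting and 49.3, 45.4 and 48.4 CPM under cytosol targeting. The log2 ratio of ER to cytosol ribosome-bound RNA was 1.38 (SE 0.05, adjusted p = 1.5e-23 by edgeR's quasi-likelihood test).

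Atp6v0a2, the a2 isoform of the Golgi and early endosomes, showed the same order of ribosome-bound groups. It was at 40.4, 40.3 and 41.2 CPM in ER ribosome-bound RNA, against 16.2, 15.6 and 15.3 CPM in cytosol ribosome-bound RNA, with a log2 ratio of 1.37 (SE 0.065, adjusted p = 4.7e-20 by edgeR's quasi-likelihood test). ER whole-cell RNA held 19.3, 17.7 and 18.9 CPM and cytosol whole-cell RNA 18.7, 21.9 and 17.6 CPM. The antisense gene 4930404A12Rik shares 9.9% of its exonic bases. In both a isoforms the first segment begins only at residue 401 (Atp6v0a1) and residue 394 (Atp6v0a2), behind a long cytosolic N-terminal domain, whereas that of Atp6v0b begins at residue 1 and that of Atp6v0c at residue 49.

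Atp6v0d1 encodes subunit d, the V0 member that caps the proteolipid ring on the cytosolic side and does not cross the membrane. Its level was 175.4, 183.1 and 165.4 CPM in ER ribosome-bound RNA, against 184.4, 165.8 and 172.6 CPM in cytosol ribosome-bound RNA. These ranges overlap. The log2 ratio was 0.00 (95% interval -0.09 to 0.1, adjusted p = 0.96 by edgeR's quasi-likelihood test), and 50.3% of tested genes had a lower one. Its ratio thus lies among those of the V1 members, although it belongs to V0 by name and place in the complex.

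**Figure D2:**
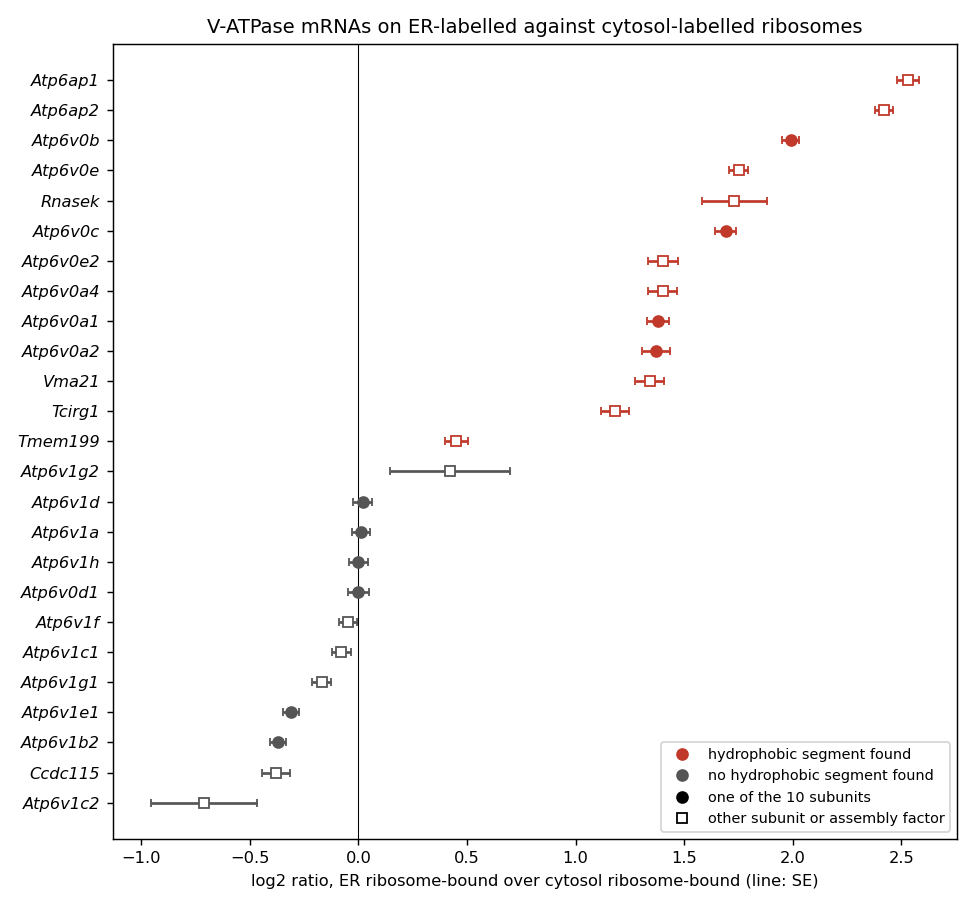
Log2 ratio of ER over cytosol ribosome-bound RNA (horizontal axis; line, SE) for the tested V-ATPase subunits and ER assembly factors, ordered by ratio; red marks genes in which the scan found a hydrophobic segment, filled circles the 10 subunits and open squares the other genes. Every red symbol lies to the right of 0, from 0.45 for Tmem199 to 2.53 for Atp6ap1, and Atp6v0d1 lies with the V1 subunits.

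The catalytic head of V1 alternates subunits A and B. Atp6v1a, subunit A, which binds and hydrolyses ATP, was at 103.6, 105.3 and 93.2 CPM in ER ribosome-bound RNA, against 103.8, 98.0 and 98.9 CPM in cytosol ribosome-bound RNA. These overlap, and the log2 ratio of 0.01 (SE 0.042) did not pass the test (adjusted p = 0.9 by edgeR's quasi-likelihood test). Both lay below whole-cell RNA, which held 163.5, 172.3 and 167.1 CPM under ER targeting and 160.0, 158.8 and 164.3 CPM under cytosol targeting.

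Atp6v1b2, the widely expressed B2 isoform of subunit B, was at 143.9, 153.4 and 146.2 CPM in ER ribosome-bound RNA, against 192.9, 188.6 and 190.9 CPM in cytosol ribosome-bound RNA. The groups did not overlap, and the mRNA was 1.29-fold lower on ER ribosomes (log2 ratio -0.37, SE 0.038, adjusted p = 1.9e-10 by edgeR's quasi-likelihood test). Only 6.8% of tested genes had a lower ratio. ER whole-cell RNA held 227.0, 237.6 and 214.6 CPM and cytosol whole-cell RNA 213.9, 215.3 and 224.9 CPM, above both ribosome-bound groups.

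Atp6v1e1, subunit E1 of the peripheral stalk that holds V1 to V0, was at 124.7, 127.4 and 119.2 CPM in ER ribosome-bound RNA, against 153.1, 153.2 and 154.2 CPM in cytosol ribosome-bound RNA. The ER libraries were all below the cytosol libraries, by 1.24-fold (log2 ratio -0.31, SE 0.036, adjusted p = 2.5e-09 by edgeR's quasi-likelihood test). Here the cytosol ribosome-bound group was the one that stood apart, since whole-cell RNA held 119.4, 125.2 and 118.7 CPM under ER targeting and 118.4, 117.0 and 119.2 CPM under cytosol targeting.

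Atp6v1d, subunit D of the central rotor shaft, was at 85.2, 89.1 and 87.7 CPM in ER ribosome-bound RNA, against 84.7, 89.1 and 85.4 CPM in cytosol ribosome-bound RNA. The ranges overlapped, and its log2 ratio was 0.02 (95% interval -0.07 to 0.1). Atp6v1h, subunit H, which joins the sectors and stops ATP hydrolysis in free V1, was at 75.4, 77.0 and 74.8 CPM in ER ribosome-bound RNA, against 78.9, 74.3 and 74.4 CPM in cytosol ribosome-bound RNA. It was the most even member over the 4 groups, with whole-cell levels of 71.9, 80.0 and 75.2 CPM under ER targeting and 75.2, 75.3 and 75.9 CPM under cytosol targeting. Neither passed the test between ribosome populations (adjusted p = 0.78 for Atp6v1d and 0.98 for Atp6v1h by edgeR's quasi-likelihood test).

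These directions depend on the scaling for members near 0. When libraries were scaled instead to the summed counts of cytosolic housekeeping genes (proteasome, chaperonin, aminoacyl-tRNA synthetase, translation factor and glycolysis genes), the median of all genes between ribosome populations moved by 0.182 (log2). The V0 members with segments were then at 1.56 to 2.17, Atp6v1b2 at -0.19 and Atp6v1e1 at -0.13, all still past the threshold in the same direction. Atp6v0d1 (0.19), Atp6v1a (0.19), Atp6v1d (0.20) and Atp6v1h (0.18) were called higher on that scale, each within 0.02 of the shift of the median. The split of calls among members became 8 higher and 2 lower, against 4 higher and 2 lower with TMM scaling, and among all genes 6944 higher and 1070 lower, against 4715 higher and 3983 lower. Other settings moved it the other way. All genes split into 4387 higher and 4743 lower with RLE size factors in place of TMM. Without mitochondrially encoded genes they split into 4294 higher and 5040 lower. The shares of 29.1% higher and 24.6% lower are thus those of the main fit.

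Set against its own lysate, ER ribosome-bound RNA held more of all 5 V0 mRNAs, with a median log2 ratio of 1.12, and the V1 members split into 1 higher, 2 lower and 2 not past the threshold, with a median of 0.00. Among all genes 32.5% were higher and 30.6% lower, with a median of 0.01. The ratio was highest for Atp6v0c at 1.73 (SE 0.051), followed by Atp6v0b at 1.63 (SE 0.039), Atp6v0a2 at 1.12 (SE 0.065) and Atp6v0a1 at 0.92 (SE 0.049). In these 4 mRNAs every ribosome-bound library lay above every whole-cell library. The fifth, Atp6v0d1, had a ratio of 0.11 (SE 0.049, adjusted p = 0.046 by edgeR's quasi-likelihood test), its libraries overlapped, and the call was lost with DESeq2 (0.10, adjusted p = 0.13), with size factors in place of TMM (0.11, adjusted p = 0.051), with a fit of the groups compared only (0.10) and without any one of 7 libraries. Among V1 members Atp6v1a was lower by 1.66-fold and Atp6v1b2 by 1.53-fold, and Atp6v1d was higher by 1.14-fold (adjusted p = 0.00022 by edgeR's quasi-likelihood test). Scaled to cytosolic genes, which moved the median of all genes by 0.264, Atp6v1e1 (0.30) and Atp6v1h (0.27) were also called higher, and all genes split into 8684 higher and 2090 lower, against 5271 higher and 4967 lower.

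On cytosol ribosomes compared with their lysate, the V0 subunits with segments went the other way. Atp6v0a1 fell to 0.71 of its whole-cell level (log2 ratio -0.50, SE 0.053), Atp6v0b was at -0.34 (SE 0.041) and Atp6v0a2 at -0.31 (SE 0.071), while Atp6v0c was not called. Atp6v0a2 rests on 1 library: without cytosol whole-cell replicate 2 its ratio was -0.16 (adjusted p = 0.067 by edgeR's quasi-likelihood test). That library also differed most from the others of its group. Atp6v0d1 was higher at 0.18 (SE 0.048), so V0 counted 1 higher and 3 lower among 5, the median being -0.31. V1 split evenly into 2 higher and 2 lower, and its median was 0.01. Atp6v1e1 was higher at 0.38 (SE 0.036) and Atp6v1d at 0.18 (SE 0.044), Atp6v1a was lower at -0.68 (SE 0.04) and Atp6v1b2 at -0.19 (SE 0.037). Of all genes 20.8% were higher and 33.0% lower, with a median of -0.05. Atp6v0c was called higher under several other settings, at 0.15 with cytosolic scaling, at 0.14 without mitochondrially encoded genes and at 0.14 with only the groups compared. Cytosolic scaling also split all genes into 4308 higher and 4478 lower, against 3380 higher and 5360 lower.

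**Figure D3:**
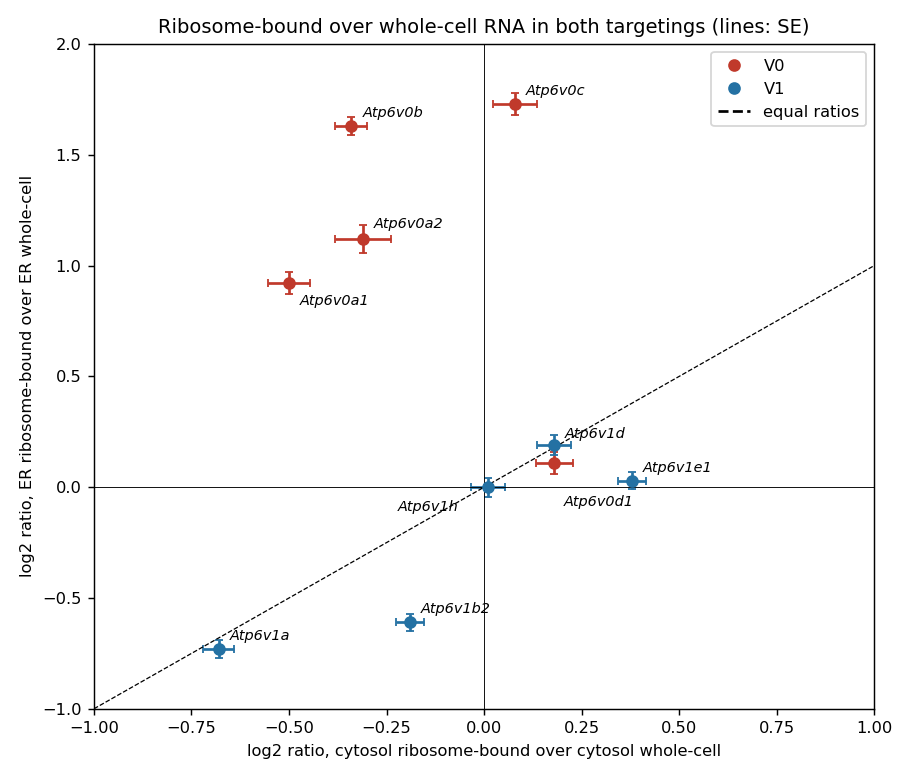
Log2 ratio of ribosome-bound over whole-cell RNA under cytosol targeting (horizontal axis) and ER targeting (vertical axis) for the 10 subunits; lines are SE and the dashed line marks equal ratios. Atp6v0a1, Atp6v0a2, Atp6v0b and Atp6v0c lie far above the line at 0.92 to 1.73 on the vertical axis, and Atp6v1a lies near it at -0.73 and -0.68.

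The pair of Atp6v1a and Atp6v1b2, partners in the same catalytic ring, differed in this respect. Atp6v1a was as far below its lysate on ER ribosomes (log2 ratio -0.73, SE 0.041) as on cytosol ribosomes (-0.68, SE 0.04). Atp6v1b2 was at -0.61 (SE 0.038) on ER ribosomes and at -0.19 on cytosol ribosomes. The difference of both enrichments, tested as an interaction, was -0.05 (95% interval -0.16 to 0.06) for Atp6v1a, and -0.42 (SE 0.054, adjusted p = 2.5e-08 by edgeR's quasi-likelihood test) for Atp6v1b2. With cytosolic scaling, which moved the median of all genes by 0.198, it was 0.15 for Atp6v1a and -0.22 for Atp6v1b2.

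Over all members, that difference of enrichments was higher at the ER for 4 of 5 V0 mRNAs and for 0 of 5 V1 mRNAs (3 of 5 with cytosolic scaling), and lower for 0 of 5 V0 and 2 of 5 V1 mRNAs. Among all genes 24.8% were higher and 18.6% lower (all genes split into 5737 higher and 587 lower with cytosolic scaling, against 4023 higher and 3010 lower). It was 1.98 (SE 0.057) for Atp6v0b, 1.65 (SE 0.076) for Atp6v0c, 1.43 (SE 0.097) for Atp6v0a2, 1.42 (SE 0.072) for Atp6v0a1 and -0.34 (SE 0.051) for Atp6v1e1. Atp6v0d1 stood at -0.07 (95% interval -0.2 to 0.07). It shares its ribosome-bound libraries with the direct comparison and adds the lysates, between which no member was called.

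Between both kinds of lysate no member was called, and 0 of 10 had an unadjusted p under 0.05; their log2 ratios ran from -0.06 for Atp6v0a2 to 0.07 for Atp6v0d1. Of all tested genes, 0% were higher and 0% lower: edgeR's quasi-likelihood test called 0 genes, with 634 at an unadjusted p under 0.05, and DESeq2 called 0; with no filter on low counts edgeR called 7. The V0 and V1 members can also be set against each other within a library, which needs no scaling between libraries. Relative to the mean of the cytosol whole-cell libraries, the V0 median minus the V1 median was 1.06, 1.03 and 1.10 (log2) in ER ribosome-bound RNA, against -0.32, -0.29 and -0.24 in cytosol ribosome-bound RNA. In whole-cell RNA it was 0.01, -0.04 and -0.03 under ER targeting and 0.06, -0.04 and -0.01 under cytosol targeting. ER ribosome-bound libraries were thus the highest, cytosol ribosome-bound libraries the lowest, and the whole-cell groups overlapped, with an SD between replicates of 0.039.

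**Figure D4:**
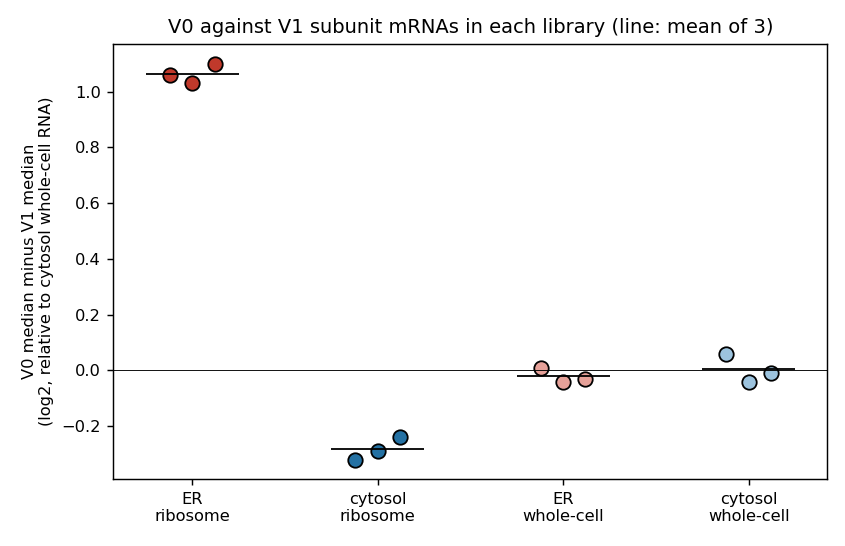
Median log2 level of the 5 V0 mRNAs minus that of the 5 V1 mRNAs (vertical axis, relative to the mean of the cytosol whole-cell libraries) in each of the 12 libraries by group; points are libraries and lines the mean of 3. The ER ribosome-bound libraries lie at 1.03 to 1.10 and the cytosol ribosome-bound libraries at -0.32 to -0.24.

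Levels between genes can be compared per length of transcript, and the order given here is among the 10 subunits only. In cytosol whole-cell RNA, CPM per kilobase was 102.5 ± 4.4 for Atp6v0b, 94.6 ± 5.0 for Atp6v0d1 and 90.1 ± 0.9 for Atp6v1e1 (SD, n = 3 each), neighbours that did not differ beyond their spread. Below them came Atp6v1b2 at 77.2 ± 2.1, Atp6v1a at 41.3 ± 0.7, Atp6v1h at 36.8 ± 0.2 and Atp6v0c, part of whose reads may be counted for its copy, at 27.8 ± 1.4 CPM per kilobase. Atp6v1d was at 20.8 ± 1.0, Atp6v0a1 at 11.9 ± 0.5 and Atp6v0a2 at 3.6 ± 0.4 CPM per kilobase. In ER ribosome-bound RNA, Atp6v0b reached 320.2 ± 6.8 CPM per kilobase and the next of the 10, Atp6v0d1, 107.2 ± 5.4, while Atp6v0c, next in order, lay within the spread of Atp6v1e1 at 94.3 ± 3.2. The place of Atp6v0c in this order is uncertain, because Atp6v0c-ps2, counted at 104.2 ± 2.7 CPM in that group, is left out. Outside the 10, Atp6v0e at 173.7 ± 2.6, Atp6v1g1 at 142.2 ± 6.0, Atp6v1f at 131.6 ± 3.8 and Atp6ap2 at 110.3 ± 1.5 CPM per kilobase lay above Atp6v0d1 in that group. These values depend on the 1 transcript per gene whose length was used.

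The remaining subunits were taken from lists drawn up for the complex. Of 9 other V0 and accessory subunits 7 were tested, and 7 of 7 were higher on ER than on cytosol ribosomes, with a median log2 ratio of 1.73 and a range of 1.18 to 2.53. Over all tested genes 29.1% were higher. Among other genes, 986 of 1240 with 2 or 3 hydrophobic segments and 904 of 1003 with 4 or more were higher. Atp6ap1 (Ac45), a glycoprotein that assembles with V0, was at 225.6, 240.6 and 218.4 CPM in ER ribosome-bound RNA, against 40.9, 36.1 and 41.8 CPM in cytosol ribosome-bound RNA, a 5.76-fold difference. Atp6ap2, the (pro)renin receptor, was at 257.6, 259.1 and 252.6 CPM against 48.6, 45.9 and 49.2 CPM in the same groups, a 5.36-fold difference. Both begin with a hydrophobic segment, at residue 16 in Atp6ap1 and residue 1 in Atp6ap2. They exceed every one of the 10 subunits in this ratio.

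Atp6v0e, subunit e, was 3.37-fold higher on ER ribosomes (log2 ratio 1.75, SE 0.042) and its paralogue Atp6v0e2 2.64-fold. The a isoforms Atp6v0a4, 2.65-fold higher, and Tcirg1, the a3 isoform known from osteoclasts, 2.27-fold higher, stood near Atp6v0a1 at 2.6-fold and Atp6v0a2 at 2.59-fold. Rnasek, a small V0 subunit, was at 1.73 (SE 0.149), from 6.4, 6.8 and 7.7 CPM in ER ribosome-bound RNA against 1.7, 2.1 and 2.5 CPM in cytosol ribosome-bound RNA, but shares 67.7% of its exonic bases with Gm21988 on the same strand and is uncertain. Atp6v0d2 and Atp6ap1l did not pass the filter on low counts.

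Of 8 other V1 subunits 5 were tested; 0 were higher and 2 lower with TMM scaling. Atp6v1g1, subunit G1 of the peripheral stalk beside Atp6v1e1, was at -0.17 (SE 0.045), and Atp6v1c2 was at -0.71 (SE 0.244) at about 1 CPM per kilobase. Atp6v1c1 (-0.08), Atp6v1f (-0.05) and Atp6v1g2 (0.42, SE 0.276) did not pass the threshold. These counts depend on the scaling. With RLE size factors 3 were lower, Atp6v1c1 (-0.12) being added, and with mitochondrially encoded genes left out 4 were, Atp6v1c1 (-0.14) and Atp6v1f (-0.10) being added. With cytosolic scaling 0 were lower (0.01 for Atp6v1g1 and -0.53 for Atp6v1c2) and 1 was higher, Atp6v1f at 0.14, so no direction is given for that gene. Atp6v1b1, Atp6v1e2 and Atp6v1g3 were filtered out. All subunits were also taken by sequence, with hydrophobic segments at the threshold of 1.6. Of those tested with a segment, 11 of 11 were higher on ER ribosomes with each of these 4 scalings. Such a call is common among genes with several segments. With TMM scaling it was made for 986 of 1240 other genes with 2 or 3 segments and 904 of 1003 with 4 or more. The count of 11 depends on the threshold. At 1.4 the scan also found 1 segment each in Atp6v1c1 and Atp6v1c2, and neither was called higher with any of the 4 scalings. Of 11 tested without a segment at 1.6, 0 were higher and 4 lower with TMM scaling, against 29.1% higher and 24.6% lower among all tested genes. With cytosolic scaling, Atp6v0d1 (0.19), Atp6v1a (0.19), Atp6v1d (0.20), Atp6v1h (0.18) and Atp6v1f (0.14) among them were called higher. Atp6v1b2 (-0.19) and Atp6v1e1 (-0.13) were then lower, and all genes split into 6944 higher and 1070 lower.

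V0 is put together in the ER membrane by dedicated factors, which do not stay in the finished pump. Vma21 was at 1.34 (SE 0.068) and Tmem199 at 0.45 (SE 0.052), both higher on ER ribosomes and both with 2 segments, while Ccdc115, with 0 segments, was lower at -0.38 (SE 0.063), and at -0.20 with cytosolic scaling. Tmem199 and Ccdc115 are partners in 1 complex, and their mRNAs lay on opposite sides. Tmem199 was at 42.3, 42.3 and 40.5 CPM in ER ribosome-bound RNA, against 30.5, 31.6 and 29.8 CPM in cytosol ribosome-bound RNA. Ccdc115 was at 19.2, 17.6 and 18.3 CPM in ER ribosome-bound RNA, against 24.8, 24.2 and 22.7 CPM in cytosol ribosome-bound RNA. Neither pair of ranges overlapped.

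Among factors that join V1 to V0 on the cytosolic side (the rabconnectin or RAVE complex) and regulators with a TLDc domain, 8 genes were tested between ribosome populations. On the ER side 2 had a higher and 3 a lower level, near the shares of all tested genes (29.1% higher and 24.6% lower). Their log2 ratios ran from -0.29 for Rogdi to 0.31 for Dmxl1 (3 higher and 0 lower with cytosolic scaling, 1 higher and 3 lower with mitochondrially encoded genes left out). Their larger differences were from the lysate: Dmxl1, Dmxl2 and Wdr7 were at -1.12, -1.05 and -1.03 on ER ribosomes and at -1.41, -1.10 and -1.01 on cytosol ribosomes. Of the Ragulator, which tethers nutrient signalling to the pump on lysosomes, 1 of 5 genes was higher on ER ribosomes, the lipid-anchored Lamtor1 at 0.43 (SE 0.043), and 0 were lower (2 higher and 0 lower with cytosolic scaling, 1 higher and 1 lower with RLE size factors, 1 higher and 2 lower with mitochondrially encoded genes left out). Here too the shares of all tested genes were 29.1% higher and 24.6% lower with TMM scaling. All genes split into 6944 higher and 1070 lower with cytosolic scaling and 4387 higher and 4743 lower with RLE size factors. Leaving out mitochondrially encoded genes gave 4294 higher and 5040 lower. Lamtor1 shares 18.7% of its exonic bases with Lrrc51 and Rogdi 10.2% with Gm42477, both on the opposite strand.

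The members were then placed among all other tested genes with a translated transcript, grouped by the same scan. The 9252 genes with 0 segments had a median log2 ratio of ER to cytosol ribosome-bound RNA of -0.11, with quartiles at -0.24 and 0.05. Atp6v0d1, Atp6v1a, Atp6v1d and Atp6v1h lie between those quartiles, and Atp6v1e1 and Atp6v1b2 below both. The 2638 genes with 1 segment had a median of 0.42, the 1240 genes with 2 or 3 segments 1.35 and the 1003 genes with 4 or more 1.39. Atp6v0a1 and Atp6v0a2 lie at the median of that last class, whose quartiles are 1.04 and 1.71, and Atp6v0b lies above these, near its 95th percentile of 2.04. Atp6v0c lies in the upper part of the class with 2 or 3 segments, where the quartiles are 0.49 and 1.76. Its class depends on the threshold, since the scan found 4 segments in it at 1.4. These places are descriptions without a test.

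**Figure D5:**
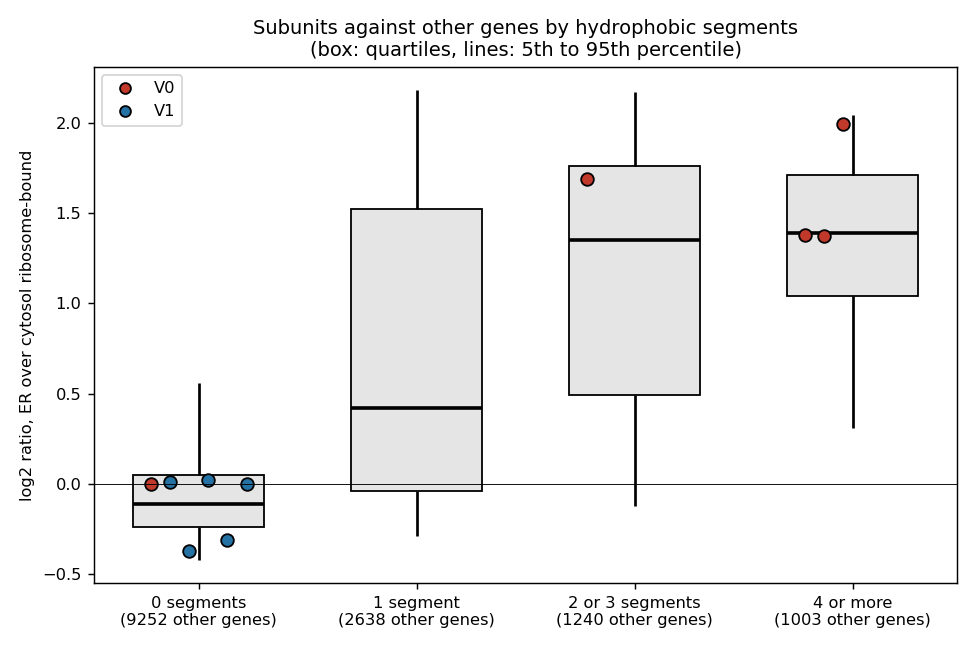
Log2 ratio of ER over cytosol ribosome-bound RNA (vertical axis) of other genes by number of hydrophobic segments (boxes, quartiles with the median; lines, 5th to 95th percentile), with the V0 (red) and V1 (blue) subunits as points. The median goes from -0.11 for 0 segments to 1.39 for 4 or more, and Atp6v0d1 is the red point in the class with 0.

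By the smallest distance between centred log2 levels over the 12 libraries, the genes most like Atp6v0c were Cldn4 (distance 0.176), Jam2 (0.234) and Reep4 (0.252). Cldn4 averaged 593.2 CPM in ER ribosome-bound RNA and 187.5 CPM in cytosol ribosome-bound RNA. The genes most like Atp6v1a were Depdc5 (0.133), Clasp2 (0.142) and Trip12 (0.144), which like it were lower in both ribosome-bound groups than in whole-cell RNA. Trip12 averaged 392.5 CPM in ER ribosome-bound RNA and 390.8 CPM in cytosol ribosome-bound RNA, against 637.7 CPM in ER whole-cell RNA and 606.0 CPM in cytosol whole-cell RNA.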

How the data were processed

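Per the labels' protocols, poly(A) libraries were made with a directional kit and 9 cycles of PCR and sequenced in paired ends. The authors deposited raw read counts per Ensembl gene for each library; STAR 2.7.9a, HTSeq 0.11.2, DESeq2 and genome build GRCm39 are named in the submitters' processing notes. Summary lines of the counter (8.75 to 12.54% of reads) were left out. Names, transcripts and overlaps came from GENCODE M21 (GRCm38), so no coordinates are printed; 52083 identifiers matched.

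Counts were filtered with filterByExpr, scaled by TMM and fitted with edgeR 4.0.16 in R 4.3.3 as 1 model of 4 groups over 12 libraries. Tests were quasi-likelihood F tests, 2-sided, adjusted over 16221 genes by Benjamini-Hochberg at 0.05. Errors cover counting and replicate spread; PCR copies are not independent molecules. The procedure was tested on simulated counts. Alternatives were other scalings and filters, DESeq2 1.42.0, replicate terms and leaving out single libraries. Replicates differed by more than counting noise (chi-square per gene 2.11 to 9.1). The highest values, 9.1 and 7.39, were those of the pairs with cytosol whole-cell replicate 2, against 2.59 for replicates 1 and 3 of that group. Hydrophobic segments are merged windows of 19 residues with a mean Kyte-Doolittle value of at least 1.6. Named were the 10 members, genes of 5 further lists past the threshold or with a role described, and 3 neighbours each of Atp6v0c and Atp6v1a. Members and lists were chosen with earlier results of these data known.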

Additional observations from a re-analysis of the deposited data

Results flagged for a closer look

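For 6 of the 10 subunits the enrichment over whole-cell RNA differed between ER and cytosol targeting, by the interaction term of edgeR's quasi-likelihood test. Among all tested genes 24.8% were higher and 18.6% lower by the same test, so such a call is common. With cytosolic scaling 3 V1 members were called higher and 2 lower, and all genes split into 5737 higher and 587 lower. The difference, ER minus cytosol on the log2 scale, was 1.98 for Atp6v0b, 1.65 for Atp6v0c, 1.43 for Atp6v0a2, 1.42 for Atp6v0a1, -0.42 for Atp6v1b2 and -0.34 for Atp6v1e1. In the first 4, membrane subunits of V0, the level on ER ribosomes was above the lysate in 3 of 3 libraries. Groups of 3 libraries are too small for a test of single outlying libraries. Cytosol whole-cell replicate 2 differed most from its replicates, with a chi-square per gene of 9.1 and 7.39.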

How the results depend on the processing

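Of 975 values of single subunits under other settings, 945 kept their side of the threshold, 16 gained a call, 11 lost one and 3 reversed. A reversal is a change of sign with a call in either setting. Changes of sign without a call, as for Atp6v1a and Atp6v1d near 0, are among the 945. With cytosolic scaling the members past the threshold between ribosome populations numbered 10, against 6, and the reversed values were 0.18 for Atp6v1h in that comparison and, in the difference of enrichments, 0.15 for Atp6v1a and 0.19 for Atp6v1h; each follows the shift of the median of all genes. Leaving out single libraries, V0 median minus V1 median was 1.38 to 1.43 between ribosome populations, 1.05 to 1.18 for ER ribosomes over lysate, -0.34 to -0.22 for cytosol ribosomes over lysate and 1.43 to 1.56 for the difference. The call of Atp6v0d1 on ER ribosomes over lysate was lost without cytosol ribosome-bound replicate 3, cytosol whole-cell replicate 1 or 3 (0.11 each), ER ribosome-bound replicate 1 (0.11) or 2 (0.07), or ER whole-cell replicate 1 (0.10) or 3 (0.05). Its difference of enrichments gained a call at -0.18 without ER whole-cell replicate 3. Atp6v0c on cytosol ribosomes over lysate gained one, at 0.13 to 0.17, without cytosol ribosome-bound replicate 1, cytosol whole-cell replicate 1, or replicate 2 or 3 of ER ribosome-bound or ER whole-cell RNA; the cause was not tested. Deviations from the group mean correlated at -0.079 to 0.06 between same-numbered libraries. With 3 libraries per group such values cannot settle whether equal numbers mark the same lysate, which the labels do not say. The replicate block gave 6 members between ribosome populations, 8 and 8 over lysate, 0 between lysates and 6 for the difference, and a block by lysate gave 8, 8 and 6, as without them. Depth limits the scarce genes: Rnasek, Atp6v1c2 and Atp6v1g2 have SEs of 0.149 to 0.276.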

Other observations

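Among other genes with 4 or more hydrophobic segments, the place of the first segment went with the ratio of ER to cytosol ribosome-bound RNA, a grouping chosen after the values were seen. The 550 genes whose first segment starts at residue 1 to 50 had a median log2 ratio of 1.49, the 393 that start at 51 to 300 had 1.34, and the 60 that start after residue 300 had 0.82. Atp6v0a1 at 1.38 and Atp6v0a2 at 1.37, whose first segments start at residues 401 and 394, are above the median of the last of these groups, which ranges from -0.21 to 2.17. Atp6v0b at 1.99, whose first segment starts at residue 1, is above the median of the first. These are descriptions with no test.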
